A study of Mus musculus with 15 samples.

Results

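The basic helix-loop-helix genes of the E protein axis were examined in T cell leukemia lines that all lack intact *E2a*. The axis was taken as 6 genes chosen by name, of 12545 genes in the expression table: the E protein genes *Tcf3*, *Tcf12* and *Tcf4*, and the inhibitor genes *Id1*, *Id2* and *Id3*. All 6 are listed in the table. RNA-sequencing was performed on 15 mouse lines of FVB/NJ background, 1 library per line, grown untreated from the thymus of moribund mice. The 7 *E2a-/-* lines, named SKO in the labels, carried the genotype E2a-/-, and the 8 DKO lines carried E2a-/-LefF/F LckCre+, in which Cre recombinase under the *Lck* promoter removes floxed *Lef1* in T cell progenitors. Every line therefore lacks intact *E2a*, no line with normal *E2a* was measured, and the comparison asks only whether loss of *Lef1* went with another level of E protein or Id mRNA. The lines were kept in culture for some weeks before they counted as established, and whether a line is 1 clone is not given in the sources used here. The age of each mouse is not in the labels, and since mice were taken when moribund, DKO mice earlier on average, age was not matched and cannot be told apart from genotype.

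E proteins bind DNA as dimers at the E-box, a short palindromic motif written CANNTG, and drive early lymphocyte development. *Tcf3* is the gene also called *E2a*, *Tcf12* encodes HEB, the other main E protein of thymocytes, and *Tcf4* encodes E2-2, best known from plasmacytoid dendritic cells and B lineage cells and not to be confused with the Wnt effector that shares its nickname. Id proteins have the dimerization helices but no DNA binding region, so that they pair with E proteins and keep them off DNA, and forced Id expression or loss of *E2a* both lead to T cell leukemia in mice.

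*Id3* and *Id2* gave most of the Id mRNA per length in these lines, so the sequence upstream of their transcription start sites is shown, with any E-box in capitals. The sequences are the 250 bases before the RefSeq start on GRCm38.p6, read in the direction of the gene. The window of *Id2* is on the minus strand at chr12:25096093-25096342, and that of *Id3* on the plus strand at chr4:136143572-136143821.
Id2: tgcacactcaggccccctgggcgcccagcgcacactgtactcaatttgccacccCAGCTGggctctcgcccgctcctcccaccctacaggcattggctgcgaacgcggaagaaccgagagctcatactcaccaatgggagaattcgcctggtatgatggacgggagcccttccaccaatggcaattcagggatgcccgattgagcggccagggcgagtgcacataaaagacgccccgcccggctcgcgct
Id3: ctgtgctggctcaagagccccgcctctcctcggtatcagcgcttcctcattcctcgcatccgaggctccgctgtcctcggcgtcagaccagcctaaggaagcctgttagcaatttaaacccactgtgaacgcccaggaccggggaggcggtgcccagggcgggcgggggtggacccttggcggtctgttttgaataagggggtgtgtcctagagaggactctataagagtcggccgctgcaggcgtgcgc
The *Id2* window holds 1 E-box, CAGCTG, whose first base is at position -196 from the start site. The *Id3* window holds none. Of 32841 such windows over all genes in the RefSeq table, 66.2% hold at least 1 CANNTG on either strand and 13.0% hold CAGCTG. These matches describe letters only, and the data do not measure binding at either gene.

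Reads on the listed genes numbered from 4847970 in DKO79.9, the shallowest line, to 21681586 in SKO95, and 3 reads are worth 0.618 CPM (counts scaled to a common total per line) in the former and 0.138 CPM in the latter. *Lef1*, the gene deleted in DKO mice, was at 103 to 210 CPM in the DKO lines and at 668 to 1558 CPM in 6 of the *E2a-/-* lines. In the floxed allele, as the paper describes it, the loxP sites flank the DNA binding domain. Reads from a deleted allele can thus remain, and *Lef1* CPM in DKO lines does not measure intact LEF1. The library labelled SKO132 went against its group. It had *Lef1* at 59.0 CPM, below every DKO line, and *Notch1* at 31.3 CPM where the other 14 lines had 830.1 to 2266 CPM. For the genes of the axis, results that rest on this library are given with and without it. For the genes of the other lists, values without it are not given separately. Where a range over the alternatives is given for them, it includes the fit without this library. SKO156.6 and SKO186.5 were the most alike pair of lines, with a Spearman rho of 0.987 over all genes. Their counts differed beyond counting error, at a chi-square of 57.8 per gene, as those of any 2 cultures may, so they are not 1 library deposited as 2, but whether they arose independently was not tested. They were kept as separate lines. With both averaged into 1 line, the DKO minus *E2a-/-* difference on the log2(CPM + 1) scale was 2.21 for *Tcf4*, 0.99 for *Id1*, -1.23 for *Id2* and -0.058 for *Id3*. All 8 T lineage markers were listed, with summed levels of 5326 to 7735 CPM in the DKO and 3927 to 6424 CPM in the *E2a-/-* lines, whereas *Cd79a*, *Pax5* and the erythroid markers were not among the listed genes. The sum covers markers that went opposite ways. *Tcf7* was at 2217 to 3624 CPM in the DKO and 800 to 2282 CPM in the *E2a-/-* lines. *Cd2* was at 3.68 to 13.5 CPM in the DKO and 0.496 to 203 CPM in the *E2a-/-* lines. In bulk RNA, fewer cells that express a gene and less RNA of it per cell cannot be told apart.

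None of the 6 genes passed the threshold between DKO and *E2a-/-* lines, and in none of them did the groups separate. Differences were tested with limma on log2(CPM + 1), with Benjamini-Hochberg adjustment over all 12545 genes and the adjusted p threshold of 0.01 used in the study. Of all genes, 0.0478% passed this threshold, 10.2% had an unadjusted p under 0.05 and 0.175% had groups that do not overlap. By limma 0 of the 6 genes were called and 2 of them, *Tcf4* and *Id2*, had an unadjusted p under 0.05. The edgeR quasi-likelihood and likelihood ratio tests and DESeq2, run on whole reads recovered from the CPM, also called 0 of the 6, where they called 0.00797%, 1.24% and 1.41% of all genes. Each of them gave 1 of the 6 an unadjusted p under 0.05, against 10.8%, 8.93% and 13% of all genes. The genes differed in how much they varied from line to line. *Tcf3* and *Tcf12* spread about as much as a typical gene of the table, with a smaller SD in 30.4% and 52.3% of the 11567 genes that averaged 1 CPM or more, on the log2 scale. *Tcf4* and the Id genes varied more than most, with a smaller SD in 91.5% of those genes for *Id2*, 93.8% for *Id1*, 95.4% for *Id3* and 99.1% for *Tcf4*.

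**Figure D1:**
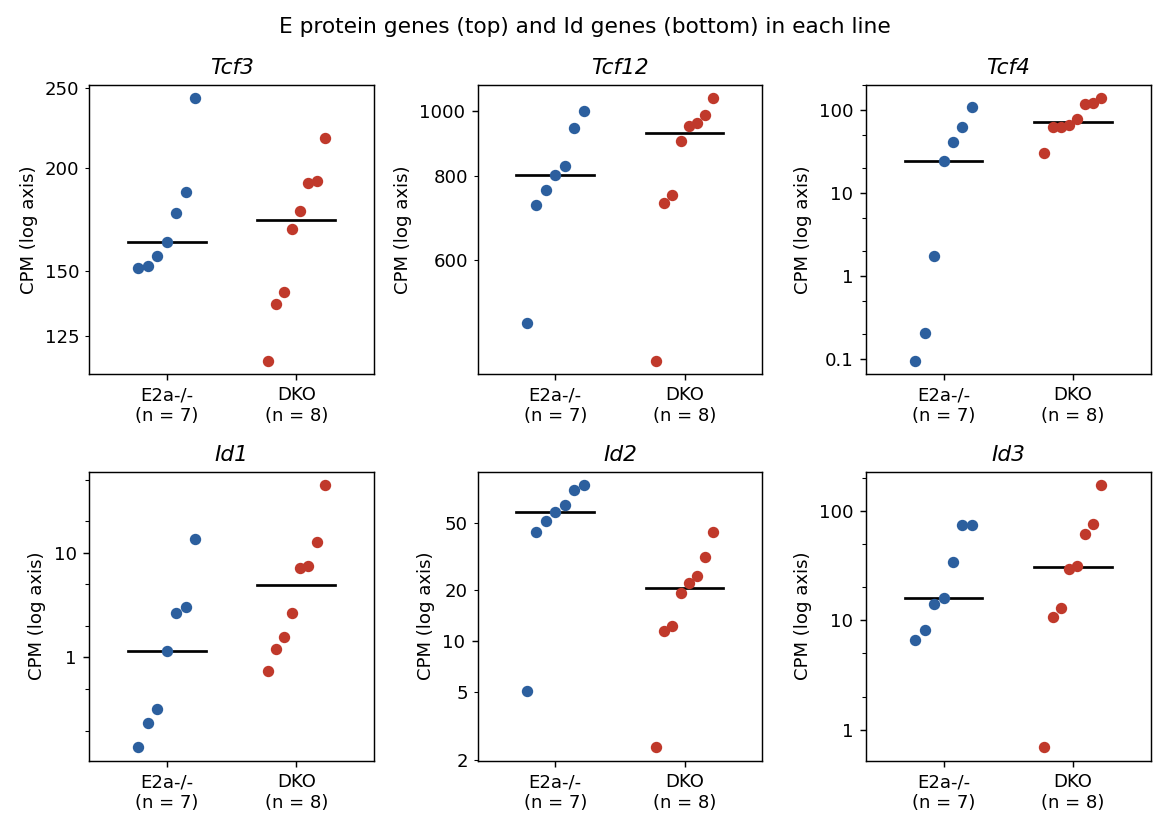
Expression of the 6 genes in CPM on a log axis, 1 point per line, for 7 *E2a-/-* and 8 DKO lines, with a horizontal bar at the group median. *Tcf3* and *Tcf12* overlap between the genotypes over most of their range, 3 *E2a-/-* lines have *Tcf4* under 2 CPM, and 6 of 7 *E2a-/-* lines have more *Id2* than any DKO line.

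Reads on *Tcf3* (ENSMUSG00000020167, chromosome 10, minus strand, bases 79872259 to 79896392 in the coordinates of the table) were present in every line despite the E2a-/- genotype. In the DKO lines *Tcf3* ran from 117 CPM in DKO170.2 through a median of 173 CPM to 218 CPM in DKO79.9. In the *E2a-/-* lines it ran from 151 CPM in SKO156.6 through a median of 162.5 CPM to 243 CPM in SKO163.5. These values stand on 1056 to 4519 reads per line, so the transcript was far above the limit that a few reads allow. The table gives 1 value per gene, and the exons that the E2a-/- allele lacks are not given in the sources used here, so reads from a disrupted transcript and from an intact one cannot be told apart, and the level says nothing about E2A protein. The group mean was 168 ± 33.8 CPM over the DKO lines (SD, n = 8) against 175 ± 32.5 CPM over the *E2a-/-* lines (SD, n = 7). The log2 fold change, DKO over *E2a-/-*, was -0.07 with a 95% interval from -0.36 to 0.22, an adjusted p of 0.890 from limma and an exact two-sided permutation p of 0.624. The interval leaves room for DKO levels from 0.777 to 1.17 times those of *E2a-/-* lines.

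*Tcf12* (ENSMUSG00000032228, chromosome 9, minus strand, bases 71692059 to 71959626 in the table) had the most CPM of the 3 E protein genes in every line. Its lowest DKO value was 426 CPM in DKO170.2, the median 927 CPM and the highest 1045 CPM in DKO713. In *E2a-/-* lines the lowest value was 485 CPM in the library labelled SKO132, the median 802 CPM and the highest 998 CPM in SKO137.1. Apart from those 2 low lines every line was at 725 CPM or above. The mean was 844 ± 202 CPM over the DKO lines (SD, n = 8) against 792 ± 166 CPM over the *E2a-/-* lines (SD, n = 7), a log2 fold change of 0.08 with a 95% interval from -0.33 to 0.48 and an adjusted p of 0.922 from limma. The sign of this small difference rested on the library labelled SKO132, without which it was -0.04. DKO levels from 0.796 to 1.39 times those of *E2a-/-* lines lie within the interval.

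*Tcf4* (ENSMUSG00000053477, chromosome 18) was the least even of the 3 E protein genes. The DKO lines ran from 30.3 CPM in DKO192.3 through a median of 72.8 CPM to 141 CPM in DKOTu3. Among the *E2a-/-* lines SKO95 had 111 CPM, SKO163.5 had 62.6 CPM, the library labelled SKO132 had 41.5 CPM and SKO137.1 had 24.6 CPM. The other 3 *E2a-/-* lines had almost none: 1.76 CPM in SKO115.2 (34 reads), 0.207 CPM in SKO156.6 (3 reads) and 0.0948 CPM in SKO186.5 (2 reads). The last 2 values are no higher than what 3 reads give in those lines.

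*Tcf4* averaged 85.7 ± 38.1 CPM over the DKO lines (SD, n = 8) against 34.5 ± 41.2 CPM over the *E2a-/-* lines (SD, n = 7). All 8 DKO lines were above the *E2a-/-* median, 3 of them were above every *E2a-/-* line, and 4 of the 7 *E2a-/-* lines were below every DKO line. The log2 fold change was 2.76 (95% interval 0.74 to 4.78), with an unadjusted p of 0.0107 and an adjusted p of 0.324 from limma and an exact two-sided permutation p of 0.0124. On the recovered reads, where group means are compared in place of mean logs, the log2 fold change was 1.31 to 1.34, with adjusted p from 0.588 in DESeq2 to 0.738 in the edgeR likelihood ratio test. It was 2.21 (adjusted p = 0.478 from limma) with SKO156.6 and SKO186.5 averaged into 1 line, and 3.07 (adjusted p = 0.186 from limma) without the library labelled SKO132. The direction held in the 27 alternatives, and the threshold was reached in 0 of them.

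The genes beside *Tcf4* were read in the 3 lines that nearly lacked it. *Fam210a*, *Rnmt* and *Mc5r* come before it on the chromosome and *4930503L19Rik*, *Stard6* and *Poli* after it, among listed genes. *Rnmt* was at 78.9 to 86.0 CPM in the 3 lines and at 82.8 to 107 CPM in the other 12 lines, *Fam210a* at 37.6 to 64.2 CPM against 41.6 to 105 CPM, *4930503L19Rik* at 42.1 to 51.1 CPM, inside its range in the other 12 lines, and *Poli* at 11.2 to 19.8 CPM against 11.4 to 30.5 CPM. *Mc5r* was low in all lines, at 0 to 0.414 CPM in the 3 and 0 to 4.74 CPM in the other 12, and *Stard6* was at 0.985 to 1.99 CPM against 0.796 to 6.12 CPM. Over 233 genes of chromosome 18, the median level of a line relative to its other autosomes stayed between -0.13 and 0.06 on the log2 scale in all 15 lines. For the chromosomes that carry the other 5 genes these medians stayed between -0.08 and 0.09.

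*Scmh1*, the gene most like *Tcf4*, was low in the same lines. The highest Pearson r of log2(CPM + 1) over 15 lines, among the 9575 genes that averaged 5 CPM or more, was with *Scmh1*, a Polycomb group gene (r = 0.93), then with *Homer1* (0.88) and *Chchd6* (0.87), with Spearman rho of 0.60, 0.86 and 0.43. *Scmh1* was at 0.284 CPM in SKO186.5, 0.690 CPM in SKO156.6 and 1.40 CPM in SKO115.2, the same lines that lacked *Tcf4*, and at 13.0 CPM or more in the other 12 lines. Within the DKO lines, none of which was low, r was 0.42 with *Scmh1*, 0.46 with *Homer1* and -0.41 with *Chchd6*. The lowest r was with *Trbv26*, a T cell receptor beta variable segment (r = -0.90), which was at 64.7 CPM in SKO156.6 and 104 CPM in SKO186.5 and at 3.63 CPM or less in every other line, followed by *Prr5* (-0.88) and *Ddc* (-0.87). These are descriptions of 15 points, of which SKO156.6 and SKO186.5 are much alike. *Trbv26* reached the mean of 5 CPM needed for this ranking only through SKO156.6 and SKO186.5.

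The Id genes differed from each other in which lines they were high in. *Id2* (ENSMUSG00000020644, chromosome 12, minus strand) was the Id gene whose genotypes overlapped in the fewest lines. The *E2a-/-* lines ran from 5.07 CPM in the library labelled SKO132 through a median of 58.1 CPM to 83.5 CPM in SKO137.1. The DKO lines ran from 2.37 CPM in DKO713 through a median of 20.6 CPM to 44.0 CPM in DKO548. Of the 7 *E2a-/-* lines 6 lay above every DKO line, by as little as 44.1 CPM in SKO95 against 44.0 CPM in DKO548, and the seventh, the library labelled SKO132, lay below all DKO lines but DKO713.

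*Id2* averaged 20.9 ± 12.9 CPM over the DKO lines (SD, n = 8) against 54.7 ± 25.9 CPM over the *E2a-/-* lines (SD, n = 7), a log2 fold change of -1.34 with a 95% interval from -2.59 to -0.09. The unadjusted p was 0.0369 and the adjusted p 0.460 from limma, and the exact two-sided permutation p was 0.0541. Without the library labelled SKO132, whose *Lef1* was also low, the log2 fold change was -1.82 with an adjusted p of 0.0824 from limma. With lines weighted by their fit it was -1.86 with an adjusted p of 0.0711, the lowest among 27 alternatives. The difference thus did not pass the threshold under any setting tried, though it lay in 1 direction in all of them.

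*Id1* (ENSMUSG00000042745, chromosome 2, plus strand) was the least abundant of the 3 Id genes, with 1 line far above the rest in each genotype. The DKO lines ran from 0.743 CPM in DKO241 through a median of 4.90 CPM to 44.5 CPM in DKO79.9. The *E2a-/-* lines ran from 0.138 CPM (2 reads) in SKO156.6 through a median of 1.14 CPM to 13.6 CPM in SKO163.5. The 3 lowest *E2a-/-* lines were below every DKO line, but the groups overlapped otherwise. The means were 9.73 ± 14.6 CPM (SD, n = 8) and 3.02 ± 4.81 CPM (SD, n = 7), with a log2 fold change of 1.18, a 95% interval from -0.33 to 2.68 and an adjusted p of 0.590 from limma. Without DKO79.9, also the shallowest library, the log2 fold change was 0.76 (adjusted p = 0.689).

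*Bmpr1a*, which encodes a type I receptor for bone morphogenetic proteins, ligands known to induce Id genes, was the gene most like *Id1* over the 15 lines (Pearson r = 0.73). It was at 37.7 CPM in DKO79.9 and 42.3 CPM in SKO163.5, the lines with the most *Id1* in each genotype, and at 0.607 CPM or less in each of the other 13 lines. Spearman rho was 0.56. These 2 lines carry the relation, and they alone brought *Bmpr1a* past the mean of 5 CPM needed to enter this ranking. Its place is therefore no test, and the relation is given as a description. *Id3* came next at r = 0.73 and *Zfp707* at 0.72, and the lowest r were with *Hcfc2* (-0.80), *Elac1* (-0.76) and *Ccdc117* (-0.76).

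*Id3* (ENSMUSG00000007872, chromosome 4, plus strand), a gene induced by T cell receptor and pre-T cell receptor signals in thymocytes, had the widest range of the Id genes in DKO lines. It was at 0.690 CPM (12 reads) in DKO548, at a DKO median of 30.5 CPM and at 172 CPM in DKO79.9. The *E2a-/-* lines ran from 6.56 CPM in SKO156.6 through a median of 15.9 CPM to 74.4 CPM in SKO115.2. The means were 49.3 ± 55.9 CPM (SD, n = 8) and 32.3 ± 29.7 CPM (SD, n = 7), a log2 fold change of 0.19 with a 95% interval from -1.60 to 1.98, an adjusted p of 0.959 from limma and an exact permutation p of 0.844. The sign was negative without DKO79.9 (-0.20) and in 4 other alternatives, so no direction is given for this gene. The spread between lines of 1 genotype was much larger than the difference between genotypes.

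**Figure D2:**
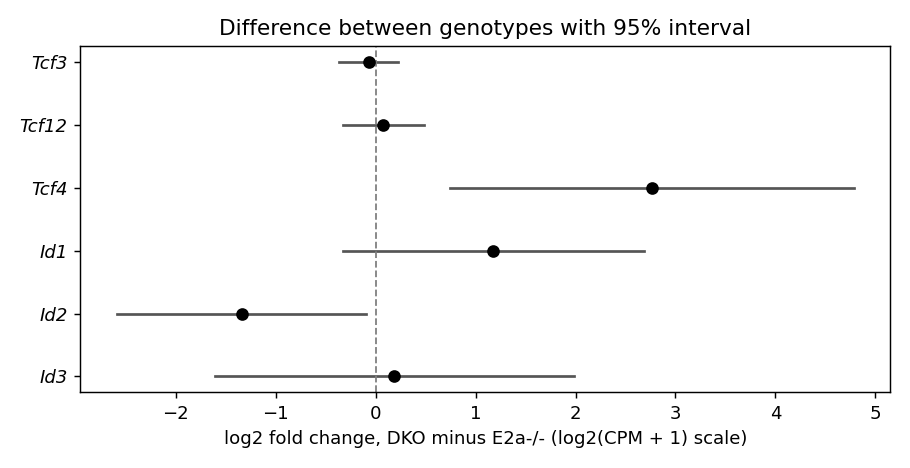
Log2 fold change of each gene, DKO minus *E2a-/-*, on the log2(CPM + 1) scale (points), with 95% intervals from limma (lines) and 0 dashed. The intervals of *Tcf3* and *Tcf12* stay within -0.36 to 0.48, those of *Tcf4* and *Id2* leave out 0 before adjustment over all genes, and that of *Id3* reaches from -1.60 to 1.98.

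To set the genes against each other, CPM was divided by the length of the longest coding transcript of each gene. On this scale the median level over the 15 lines was 131 CPM per kb for *Tcf12*, 57.1 for *Tcf3*, 23.2 for *Id3*, 16.0 for *Id2*, 7.30 for *Tcf4* and 2.28 for *Id1*. *Tcf12* was above *Tcf3* in 15 of 15 lines and *Tcf3* above *Id3* in 12 of 15. *Id3* was above *Id2* in only 9 lines, and *Tcf4* above *Id1* in 9, so the members of each of these pairs do not differ in level beyond the spread between lines. *Id2* was above *Tcf4* in 12 lines. The order depends on which transcript is counted: with merged exons *Tcf12* was above *Tcf3* in 11 lines and below it in DKO79.9, DKO170.2, DKO192.3 and the library labelled SKO132, and with the summed transcript length that the table lists *Tcf3* came after both *Id2* and *Id3*.

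On the longest coding transcript *Tcf12* made up 57.7% to 73.7% of the summed E protein level per length, with a median of 67.4%. *Tcf3*, from the disrupted locus, gave 21.8% to 38.7%, and *Tcf4* gave from 0.00568% in SKO186.5 to 7.05% in DKOTu3. Among the Id genes *Id3* was the highest per length in 9 lines (6 DKO and 3 *E2a-/-*) and *Id2* in the other 6 lines (2 DKO and 4 *E2a-/-*), while *Id1* was the highest in 0 lines. The extremes were DKO548, where *Id2* made up 92.3% of the summed Id level, and DKO713, where *Id3* made up 87.5%.

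Per length of the longest coding transcript the ratio of the summed Id to the summed E protein level was under 1 in each of the 15 lines and ran from 0.0848 in DKO192.3 to 0.921 in DKO79.9, with a median of 0.254. The DKO median was 0.192 and the *E2a-/-* median 0.254, and the *E2a-/-* lines, from 0.182 in SKO95 to 0.483 in SKO115.2, all lay within the range of the DKO lines. With merged exons the median ratio over all lines was 0.395, and that of DKO79.9 was 1.38. With the transcript lengths summed in the table the median was 0.734, and DKO79.9 (1.77), SKO115.2 (1.19), SKO156.6 (1.09) and SKO163.5 (1.06) were above 1. Which sum is larger thus depends on the length used, the ratio has meaning only between lines, and mRNA levels do not give the amounts of protein. The E protein sum also counts *Tcf3* from the disrupted locus, 21.8% to 38.7% of it on the longest coding transcript. The values under 1 hold for sums that count *Tcf3*, and ratios without it were not computed.

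**Figure D3:**
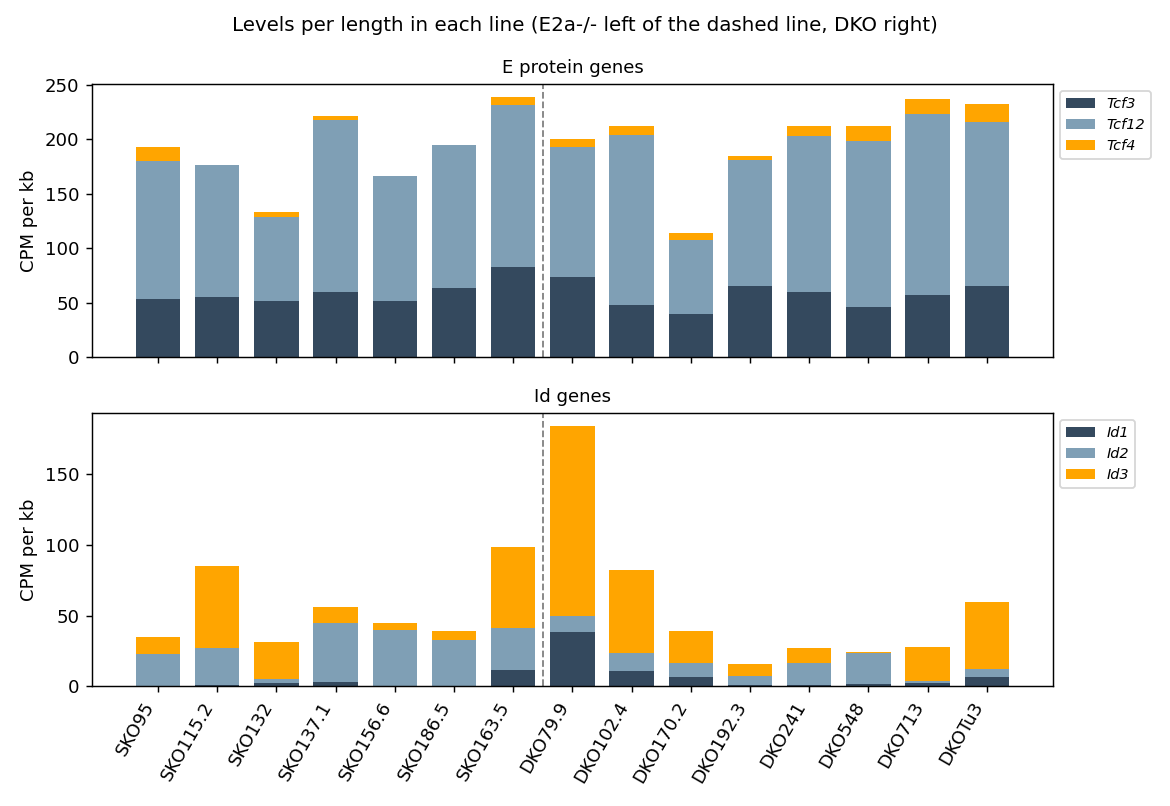
Stacked levels in CPM per kb of the longest coding transcript for the 3 E protein genes (top) and the 3 Id genes (bottom) in each line, *E2a-/-* left of the dashed line and DKO right. *Tcf12* is the largest part of every upper bar, DKO170.2 has the lowest E protein sum (114 CPM per kb), and DKO79.9 has the highest Id sum (185 CPM per kb), most of it *Id3*.

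Among the 15 pairs that the 6 genes form, only *Id1* and *Id3* varied together past an adjusted p of 0.05. Over the 15 lines their Pearson r was 0.73 (permutation p = 0.00213, adjusted over the 15 pairs 0.0319) and their Spearman rho 0.71 (permutation p = 0.00390, adjusted 0.0585). Within DKO lines r was 0.81 (exact permutation p = 0.0153, adjusted 0.229), and within *E2a-/-* lines it was 0.69 (exact permutation p = 0.0758, adjusted 0.379). Leaving out the 2 lines with *Id1* farthest from the median gave r = 0.57 (permutation p = 0.0391, adjusted 0.396), and leaving out DKO79.9 gave 0.63 (permutation p = 0.0142, adjusted 0.213). The relation therefore kept its direction within each genotype but rested partly on the most extreme lines. For *Id2* no relation with the other Id genes passed, with r of -0.23 against *Id1* (permutation p = 0.419, adjusted 0.762) and -0.28 against *Id3* (permutation p = 0.305, adjusted 0.653).

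Over all 15 lines *Tcf4* had r = -0.50 with *Id2* (permutation p = 0.0525, adjusted 0.352) and a Spearman rho of -0.55 (permutation p = 0.0360, adjusted 0.270), and r = 0.48 with *Id1* (permutation p = 0.0703, adjusted 0.352). Since 3 of these lines were near 0 for *Tcf4* and form a cluster of their own, its relations were also read in the other 12 lines, a choice made after the data were seen. There r was -0.20 with *Id2* (permutation p = 0.541, adjusted 0.943) and -0.05 with *Id1* (permutation p = 0.875, adjusted 0.943). *Tcf3* and *Tcf12* had r = 0.44 over all lines (permutation p = 0.107, adjusted 0.403). No pair of an E protein gene and an Id gene passed an adjusted p of 0.05.

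The genes were also set against *Lef1* within each genotype, 12 relations in all, of which 0 passed an adjusted p of 0.05. In *E2a-/-* lines *Id2* had r = 0.95 with *Lef1* (exact permutation p = 0.0597, adjusted over the 6 genes 0.251), but rho was 0.39 (exact permutation p = 0.396, adjusted 0.714). Without the library labelled SKO132, which had the lowest *Lef1* and the lowest *Id2* of these lines, r was 0.10 (exact permutation p = 0.836, adjusted 0.843). *Tcf12* went the same way, from r = 0.84 (exact permutation p = 0.0837, adjusted 0.251) to -0.10 without that library. In DKO lines *Lef1* ranged only from 103 to 210 CPM, and its reads there may come from the deleted allele. With these *Lef1* values *Id1* and *Id3* each had r = 0.71 (exact permutation p = 0.0456 and 0.0471, adjusted 0.141 for both). Without the 2 DKO lines farthest from the median of *Lef1* these were -0.04 and 0.37. Without DKO79.9 alone they were 0.40 (exact permutation p = 0.358, adjusted 0.735) and 0.55 (exact permutation p = 0.203, adjusted 0.735), and Spearman rho over all 8 lines was 0.64 and 0.62.

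**Figure D4:**
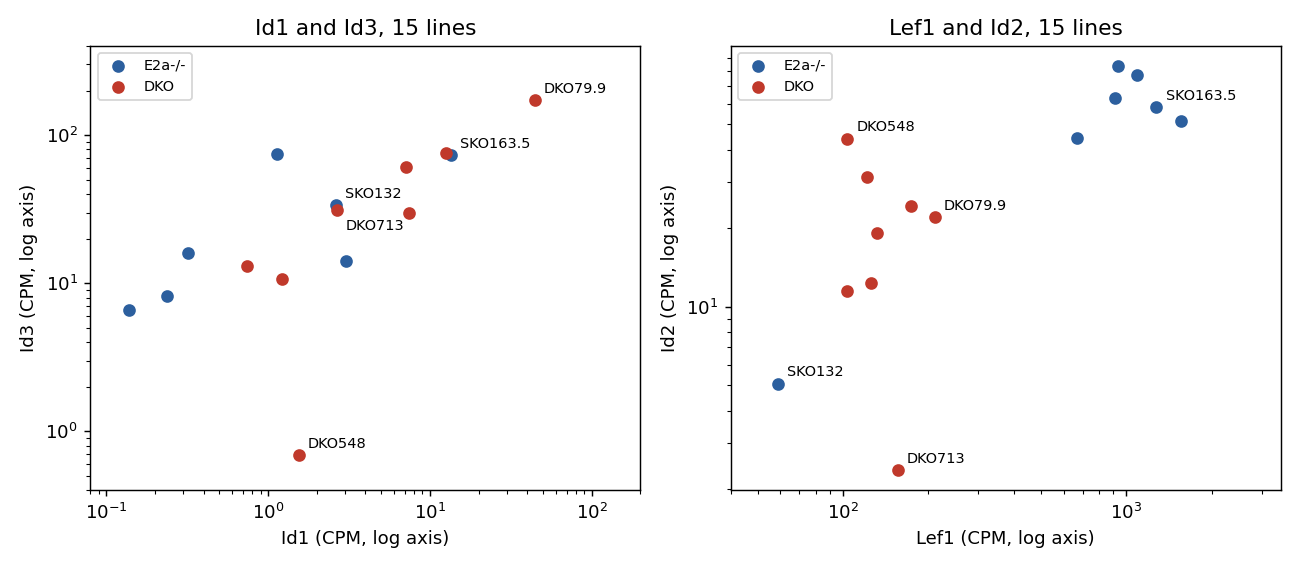
*Id1* against *Id3* (left) and *Lef1* against *Id2* (right) in CPM on log axes, 1 point per line, *E2a-/-* in blue and DKO in red, with 5 lines named. DKO79.9 is highest in both *Id1* and *Id3* and DKO548 lowest in *Id3*, and on the right the library labelled SKO132 lies apart from the other 6 *E2a-/-* lines with low *Lef1* and low *Id2*.

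The genes most like the other members over the 15 lines were as follows, as descriptions and with no statement of shared control. *Tcf3* was most like *Zfp646* (r = 0.89), *Arid1a*, a subunit of the BAF chromatin remodelling complex that ranged from 196 to 616 CPM (0.89), and *Zfp866* (0.86), and most unlike *Tpd52l2* (-0.85), *Acp1* (-0.82) and *Cct5* (-0.82). *Tcf12* was most like *Sbf2* (0.93), *Sec22c* (0.89) and *Nfatc3*, a calcium-regulated transcription factor of thymocytes (0.89), and most unlike *Nelfe*, a subunit of the negative elongation factor (-0.93), *1190007I07Rik* (-0.91) and *Cfdp1* (-0.90). *Id2* was most like *Tm6sf1* (0.86), *4930523C07Rik* (0.84) and *Neil3*, a DNA glycosylase (0.83), and most unlike *Dennd5a* (-0.87), *Scamp5* (-0.85) and *Lrp1* (-0.84). *Dennd5a* was at 96.3 CPM in the library labelled SKO132 and at 112 CPM in DKO713, the lines with the least *Id2* in each genotype, and at 0.933 CPM or less in the other 6 *E2a-/-* lines. *Id3* was most like *2410002F23Rik* (0.88), *Znrf1* (0.88) and *Atxn7l2* (0.87), and most unlike *Sephs2* (-0.84), *Pnkd* (-0.83) and *Parp1* (-0.83).

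The other genes of the pathway were read in 6 lists of 83 entries in all, some genes being in more than 1 list. In the main limma fit, on log2(CPM + 1) with all lines, 0 genes of these lists passed the adjusted p of 0.01, in either direction. Of all genes that fit called 0.0239% higher and 0.0239% lower in DKO. Among partners of E proteins in the bHLH and LIM families 7 of 15 genes were listed. Their median log2 fold change was -0.11, where that of all genes was -0.02. By limma 1 had an unadjusted p under 0.05, higher in DKO, against 10.2% of all genes. The oncogenic partners *Tal2*, *Lyl1* and *Lmo2* were not among the listed genes. *Tal1* was listed, at 0 to 2.30 CPM in the DKO lines (median 0.0234) and 0 to 7.97 CPM in the *E2a-/-* lines (median 0.124). Its adjusted p was 0.809 from limma. *Lmo4*, a LIM-only adaptor, averaged 171 ± 100.8 CPM over the DKO lines (SD, n = 8) against 91.9 ± 43.6 CPM over the *E2a-/-* lines (SD, n = 7) (log2 fold change 0.83, adjusted p = 0.475 from limma). *Ldb1*, the scaffold of LIM domain complexes, was at 266 ± 58.1 and 250 ± 7.99 CPM. *Lmo1*, a leukemia oncogene, had 0 reads in every DKO line, where 3 reads are worth at most 0.618 CPM, and was above 0 in 2 of the 7 *E2a-/-* lines, up to 11.8 CPM, with an adjusted p of 0.566 from limma. The edgeR likelihood ratio test and DESeq2 each called *Lmo1* and no other gene of this list, and the quasi-likelihood test called 0. Of all genes they called 1.24%, 1.41% and 0.00797%, in that order. *Twist2* stayed at or under 3.38 CPM.

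Cofactors of E proteins were the most even group between the genotypes. Of 11 genes 10 were listed, their median log2 fold change was -0.01, and 0 had an unadjusted p under 0.05 in any of the 4 tests. *Ncor1*, a corepressor, averaged 393 ± 131 CPM over the DKO lines (SD, n = 8) against 407 ± 85.5 CPM over the *E2a-/-* lines (SD, n = 7). *Usp1*, a deubiquitinase known to stabilize Id proteins, was at 350 ± 51.8 and 350 ± 45.00 CPM. *Kat2a*, a histone acetyltransferase that E proteins recruit, was at 177 ± 33.0 and 152 ± 19.1 CPM (adjusted p = 0.595 from limma). *Cbfa2t3*, an ETO family corepressor, was at 80.7 ± 17.3 and 63.9 ± 29.0 CPM (adjusted p = 0.559). *Crebbp*, another acetyltransferase, was at 16.1 to 92.0 CPM in DKO lines (adjusted p = 0.906 from limma). In *E2a-/-* lines it ran from 0.221 CPM, almost none, in the library labelled SKO132 to 98.7 CPM.

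Of 17 genes known to be activated by E proteins in lymphocytes 14 were listed, with a median log2 fold change of 0.22. Among these 3 had an unadjusted p under 0.05 by limma, 2 higher and 1 lower in DKO, against 10.2% of all genes. The likelihood ratio test and DESeq2 called 1 of them, *Cdkn1a*, the p21 cell cycle inhibitor, as higher in DKO, while the quasi-likelihood test called 0. Of all genes they called 1.24%, 1.41% and 0.00797%, in that order. *Cdkn1a* was at 58.5 to 201 CPM in DKO lines and at 3.13 to 40.4 CPM in *E2a-/-* lines, so its groups did not overlap, as in 0.175% of all genes. Its log2 fold change was 2.41, with an adjusted p of 0.0257 from limma and an exact permutation p of 0.000155. Over the alternatives its adjusted p ran from 1.79e-06 to 0.0714. *Ptcra*, the pre-T cell receptor alpha chain and a direct E protein target, averaged 60.4 ± 28.3 CPM over the DKO lines (SD, n = 8) against 42.0 ± 42.7 CPM over the *E2a-/-* lines (SD, n = 7) (adjusted p = 0.606 from limma). Its lowest value, 0.165 CPM in the library labelled SKO132, is what 3 reads give there. *Rag1*, a subunit of the V(D)J recombinase, was at 1076 ± 810.4 and 802 ± 500.01 CPM (adjusted p = 0.905). *Il7r*, the interleukin-7 receptor alpha chain, ranged over 0.841 to 262 CPM in the DKO and over 0 to 148 CPM in the *E2a-/-* lines (adjusted p = 0.666). For each of these last 3 genes the difference between the group means was smaller than the SD between the DKO lines.

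Genes that E proteins restrain in thymocytes had a median log2 fold change of -0.37 over 8 listed of 9. The 4 tests called 0 of them. At an unadjusted p under 0.05 by limma were 3, *Id2* among them, 1 higher and 2 lower in DKO, against 10.2% of all genes. *Gata3*, whose overexpression blocks *E2a*-deficient thymocytes, averaged 162.75 ± 82.0 CPM over the DKO lines (SD, n = 8) against 215 ± 52.8 CPM over the *E2a-/-* lines (SD, n = 7) (adjusted p = 0.551 from limma). *Cdk6*, a kinase of the G1 phase, was at 143 ± 71.7 and 167 ± 112 CPM (adjusted p = 0.902). *Zbtb16*, which encodes PLZF, the factor of innate-like T cells, was at 3.57 ± 5.99 and 25.0 ± 22.9 CPM (log2 fold change -2.76, adjusted p = 0.268). *Tbx21*, which encodes T-bet, ranged from 7.71 to 11.6 CPM in the DKO lines but from 0 to 7.94 CPM in the *E2a-/-* lines, the highest of them the library labelled SKO132. Its log2 fold change was 2.30 with an adjusted p of 0.0208 from limma and an exact permutation p of 0.000466, and 6 of 8 DKO lines were above every *E2a-/-* line. Over the alternatives its adjusted p ran from 0.000106 to 0.284.

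Signals that induce Id genes gave 15 listed of 17 genes and a median log2 fold change of 0.13. Of these, 0 were called by any of the 4 tests. An unadjusted p under 0.05 by limma was found for 4, 3 higher and 1 lower in DKO, against 10.2% of all genes. *Acvr1*, a type I receptor of the bone morphogenetic protein family, averaged 23.3 ± 13.1 CPM over the DKO lines (SD, n = 8) against 5.02 ± 8.43 CPM over the *E2a-/-* lines (SD, n = 7) (log2 fold change 2.70, adjusted p = 0.0915 from limma, from 0.00733 to 0.423 over the alternatives). *Smad5*, which carries that signal to the nucleus, was at 189 ± 52.8 and 170 ± 45.3 CPM (adjusted p = 0.866). *Tgfbr2*, the type II receptor for TGF-beta, was at 21.2 ± 13.1 and 35.0 ± 17.2 CPM (adjusted p = 0.580). *Stat5b*, which carries interleukin-7 signals, was at 223 ± 33.3 and 178 ± 25.4 CPM (adjusted p = 0.344), with 7 of 8 DKO lines above every *E2a-/-* line. *Nab2*, a corepressor of EGR factors, was at 4.31 ± 3.70 and 1.88 ± 2.23 CPM (adjusted p = 0.574).

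Genes of innate lymphoid cells, a fate that high *Id2* is known for, had a median log2 fold change of -0.49 over 11 listed of 14. By limma 3 were at an unadjusted p under 0.05, 1 higher and 2 lower in DKO, against 10.2% of all genes. *Zbtb16*, *Tbx21* and *Gata3* are in this list too. *Tox2*, an HMG box factor, was at 0 to 0.489 CPM in DKO lines and ran from 0 through a median of 1.31 to 252 CPM in *E2a-/-* lines, with 6 of 7 above every DKO line. Its adjusted p was 0.371 from limma and as low as 1.17e-05 in an alternative. The likelihood ratio test and DESeq2 called *Tox2* and no other gene of the list, where they called 1.24% and 1.41% of all genes. *Ets1*, a factor needed by T cells and natural killer cells, was at 879 ± 141 CPM (SD, n = 8) and 802 ± 258 CPM (SD, n = 7).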

How the data were processed

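RNA-sequencing values of 15 leukemia lines, 8 DKO and 7 *E2a-/-*, were used, with groups from the sample labels. The authors trimmed reads with Trimmomatic 0.33, aligned them with TopHat2 2.1.0 to mm10, counted them per gene with HTSeq 0.6.1 and scaled them with edgeR. The deposited values are CPM for 12545 genes. How genes were selected and the strand setting are not given in the sources used here. Gene positions are those of the table, which is not on GRCm38 (82 gene starts agree). Each value was a whole multiple of 1 read (100% of values, tolerance 0.01), so that reads were recovered for the count tests.

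Genes were tested with limma 3.58.1 (R 4.3.3) on log2(CPM + 1) with a variance trend, two-sided, which understates changes of low genes. Exact permutation tests ran over all 6435 splits of the lines, so that 0.0001554 is the smallest possible p. Correlations used 100000 resamples over 15 lines and all orders within a genotype. Each line is 1 culture, so p-values measure the spread between lines. The alternatives were other pseudocounts, filters, weights and scalings, edgeR 4.0.16, DESeq2 1.42.0 and single lines left out. Levels per length use the longest coding transcript of GENCODE, chosen after the data were seen, because the length column of the table sums over transcripts. The tests were tried on simulated data of the same size, with the spread of a typical gene of each level. Of 200 genes changed 4-fold, limma recovered 57% and the other tests 63.5% to 66.5%. A gene that is not called can therefore still differ, and *Tcf4* and the Id genes vary more than most.

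The 6 genes and the lists were chosen with earlier results of these data known. Of each list the text names genes with an adjusted p under 0.01, otherwise the 3 with the largest fold change and the 2 with the highest mean CPM, and it names the 3 genes most and least like each member. *Notch1*, *Tal1*, neighbours of *Tcf4* and cell type markers were named beside these.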

Additional observations from a re-analysis of the deposited data

Results flagged for a closer look

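In 32 genes named here, each genotype was examined for 1 line that stands apart from its group, by Dixon's criterion at the 95% level. It marked 9 of 64 groups, where chance would give about 3.2 if values were normally distributed. The criterion was run on CPM without logs, and each marked line was the highest of its group. An excess over chance can therefore not be read from these counts. Among the members, *Id1* at 44.5 CPM in DKO79.9 stood apart from the other DKO lines (0.743 to 12.6 CPM), and *Id3* at 172 CPM in DKO79.9 from 0.690 to 75.8 CPM in the others. SKO163.5 stood apart with *Id1* at 13.6 CPM (0.138 to 3.05 CPM in the other *E2a-/-* lines) and with *Tcf3* at 243 CPM (151 to 186.7 CPM). *Gata3* was at 343 CPM in DKO79.9 against 91.9 to 191 CPM in the other DKO lines. The library labelled SKO132 stood apart with *Acvr1* at 23.7 CPM (0 to 4.76 CPM in the others) and *Tbx21* at 7.94 CPM (0 to 2.28 CPM), both toward the DKO values. *Zbtb16* was at 70.7 CPM in SKO186.5 (0 to 30.4 CPM in the others), and *Twist2* at 0.473 CPM in DKOTu3, with 0 to 0.0638 CPM in the other DKO lines.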

How the results depend on the processing

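None of the 6 genes reached an adjusted p of 0.01 in any of 27 alternatives. *Tcf4*, *Id1* and *Id2* kept their direction in all of them. With each line left out in turn, the log2 fold change ran from 2.19 to 3.31 for *Tcf4*, 0.76 to 1.59 for *Id1*, -1.82 to -0.998 for *Id2*, -0.13 to 0.0092 for *Tcf3*, -0.037 to 0.21 for *Tcf12* and -0.20 to 0.75 for *Id3*. *Id3* was at -0.058 with SKO156.6 and SKO186.5 averaged. The number of genes called among all genes, 6, was 29 with array weights and 19 at an adjusted p under 0.05. It was 1 by the quasi-likelihood test, 155 by the likelihood ratio test and 177 by DESeq2. With 1 line left out it was 3 to 17. It was 3 without DKO170.2, DKO713, SKO137.1 or SKO156.6, each left out alone, and 17 without the library labelled SKO132. The count of related pairs, 1, was 0 with a pseudocount of 0.1, with Spearman's rho, without the 2 farthest lines, with the averaged lines, without DKO79.9 and in the 12 lines with *Tcf4*. The relation of *Lef1* with *Tcf12* turned to -0.10 without the library labelled SKO132 and that with *Id1* in DKO to -0.040 without the 2 farthest lines. The median Id to E protein ratio of 0.254 was 0.734 on the summed transcript length. The cause was not tested for any of these. No paired analysis was possible because the labels link no DKO line to an *E2a-/-* line. *Tcf4* in SKO156.6 and SKO186.5 and *Id1* in SKO156.6 rest on 3 reads or fewer, and the values that 3 reads give cover counting error only, while the 95% intervals cover the spread between lines.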

Other observations

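*Tcf4* is known as a regulator of plasmacytoid dendritic cells, and 4 of 6 markers of those cells were listed, while *Siglech*, a defining marker, was not. *Spib*, an ETS factor of these cells, averaged 13.6 ± 11.4 CPM over the DKO lines (SD, n = 8) against 3.47 ± 2.57 CPM over the *E2a-/-* lines (SD, n = 7) (log2 fold change 1.40, adjusted p = 0.399 from limma). *Irf8* was at 32.7 ± 22.8 and 16.4 ± 14.2 CPM (adjusted p = 0.551), *Bst2* at 40.8 ± 15.9 and 36.2 ± 23.3 CPM (adjusted p = 0.750), and *Ccr9* at 49.4 ± 84.9 and 203 ± 266 CPM (adjusted p = 0.559). Whether such cells or genes have a part in the *Tcf4* levels was not tested.

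Of the markers of other cell types, 1 of 6 B lineage, 3 of 6 myeloid, 0 of 5 erythroid and 2 of 6 stromal or epithelial genes were listed. The summed myeloid level was 10.6 to 18.9 CPM in the DKO and 8.99 to 16.7 CPM in the *E2a-/-* lines. *Blnk*, the B lineage gene, was at 0.483 to 6.54 and 0.142 to 3.92 CPM. *Col1a2*, a collagen gene known from fibroblasts, was at 0 to 947 CPM in the DKO and 1.84 to 278 CPM in the *E2a-/-* lines, while *Col1a1* and *Col3a1* were not among the listed genes.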
